A study of Mus musculus with 12 samples.

Results

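The Eph receptors and ephrins form a contact signaling system, and 9 of its genes, 5 receptors (Epha2, Epha4, Ephb2, Ephb3 and Ephb4) and 4 ephrins (Efna1, Efna5, Efnb1 and Efnb2), were followed in the remnant lens epithelial cells (LCs) of the mouse after cataract surgery. They were taken by symbol from the 45859 genes measured. RNA came from the lens capsule with its attached LCs, collected from adult mice, 2 months old, either immediately (0 h) or 24 h post cataract surgery (PCS), after the fiber cells had been removed. The 4 groups of 3 libraries were WT LCs of strain C57BL/6 at 0 h and at 24 h, and β8ITG-cKO LCs of a mixed C57BL/6 and 129S1/Sv strain at 0 h and at 24 h. In the β8ITG-cKO mice a floxed exon of Itgb8, the β8 integrin gene, was deleted by the lens-specific MLR10-Cre. The WT mice are given as wild type, and strain differs along with genotype, so effects of the deletion, the Cre and the strain cannot be told apart. Each library pooled several capsules.

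Eph receptors are receptor tyrosine kinases that bind ephrins on the surface of a neighboring cell, and signals pass into both cells, by way of the kinase in the receptor-bearing cell and by way of the ephrin in the other. Class A ephrins are held in the membrane by a lipid anchor and mostly bind EphA receptors, while class B ephrins span the membrane, carry a PDZ-binding tail and mostly bind EphB receptors. EphA4 binds both classes. The system guides cell sorting, boundaries, adhesion and migration. In the lens, EphA2 and ephrin-A5 are best known: changes in the EPHA2 gene cause human cataract, and mice that lack either gene show disordered packing of lens cells.

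Of the 9 genes, Epha2 and Epha4 were the EphA receptors whose RNA was higher at 24 h PCS in β8ITG-cKO LCs, so the 250 bases before their RefSeq starts (GRCm38.p6) are given here, 5′ to 3′ on the strand of the gene. Capitals mark matches on either strand to any of 5 motifs. The GC box was searched as GGGCGG, the CCAAT box by the letters of its name, the TATA box as TATAAA, the AP-1 site as TGANTCA and the cAMP response element (CRE) as TGACGTCA. The Epha2 window was chr4:141300971-141301220 on the plus strand and the Epha4 window chr1:77515089-77515338 on the minus strand, whose last 15 bases lie within the gene as the deposited tables place it.
Epha2: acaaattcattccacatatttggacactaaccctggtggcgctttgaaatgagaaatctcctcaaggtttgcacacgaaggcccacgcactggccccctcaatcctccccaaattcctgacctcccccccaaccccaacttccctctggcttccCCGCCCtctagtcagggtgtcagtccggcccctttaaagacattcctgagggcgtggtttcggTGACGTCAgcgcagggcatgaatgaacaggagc
Epha4: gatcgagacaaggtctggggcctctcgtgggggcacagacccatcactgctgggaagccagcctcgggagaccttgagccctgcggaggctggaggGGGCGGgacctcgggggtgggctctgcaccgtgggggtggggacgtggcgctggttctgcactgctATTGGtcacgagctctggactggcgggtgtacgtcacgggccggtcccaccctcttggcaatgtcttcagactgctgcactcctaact
The Epha2 window held a GC box at -96 and a CRE at -33, counted from the RefSeq start to the first base of the match. The Epha4 window held a GC box at -154 and a CCAAT box at -88, the latter read on the other strand. Over 32851 promoter windows of the same length, a GC box was present in 32.7%, a CCAAT box in 33.8%, a TATA box in 12.4%, an AP-1 site in 6.7% and a CRE in 1.5%. Among the 9 members, 7 windows held a GC box, 5 a CCAAT box, 1 a TATA box, 1 a CRE and 0 an AP-1 site, and their GC content ran from 55.6% to 74.8%. A match is a string of letters and says nothing on binding.

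Levels are in FPKM (fragments scaled to gene length and library size), so they may be set side by side between genes. Read counts were not used here and depth is unknown, but steps between low values gave relative depths of 0.876 to 1.10. Summed FPKM were 446531 to 740140 per library, with 36.0% to 49.6% in the 10 highest genes, and replicates correlated at 0.929 to 0.976 (Pearson, log2 scale, across genes). The 5 lens epithelial markers (Foxe3, Pax6, Cdh1, Tfap2a, Gja1) summed to 376 to 379 FPKM at WT 0 h, 327 to 354 FPKM at WT 24 h, 459 to 511 FPKM at β8ITG-cKO 0 h and 246 to 281 FPKM at β8ITG-cKO 24 h. In β8ITG-cKO LCs 4 of 5 fell over time, Foxe3 from a mean of 141.6 to 31.2 FPKM and Cdh1 to 42.4 FPKM, 2.24-fold lower. Gene-level Itgb8 was 7.26 to 10.8 FPKM in WT and 4.58 to 7.31 FPKM in β8ITG-cKO LCs at 0 h, and 8.38 to 9.58 FPKM in WT and 9.28 to 11.8 FPKM in β8ITG-cKO LCs at 24 h. These values cover all exons of the gene while 1 floxed exon was removed, so they do not check the labels. RNA of other cells differed between the groups. The 10 photoreceptor markers summed to 274, 872 and 111 FPKM in WT 0 h replicates 1, 2 and 3, 61.6 to 122 FPKM at WT 24 h, 140 to 246 FPKM at β8ITG-cKO 0 h and 699 to 828 FPKM at β8ITG-cKO 24 h. The 8 neutrophil markers summed to 0.511 to 1.54 FPKM at 0 h, 45.6 to 65.1 FPKM at WT 24 h and 12.4 to 35.3 FPKM at β8ITG-cKO 24 h. Markers of lens fiber cells summed to 3950 to 6141 FPKM at 0 h and 750 to 1525 FPKM at 24 h. Those of the corneal epithelium summed to 208 to 269 FPKM at WT 0 h, 152 to 401 FPKM at WT 24 h, 536 to 911 FPKM at β8ITG-cKO 0 h and 139 to 190 FPKM at β8ITG-cKO 24 h. Most of it came from Aldh3a1 (means of 157 to 734 FPKM). The keratins Krt12, Krt5 and Krt14 had means of 0.488, 1.39 and 0.0312 FPKM at WT 0 h. At WT 24 h they had 1.58, 3.51 and 1.06 FPKM. The sum thus mostly follows Aldh3a1 and does not measure corneal cells. The remaining lists summed over the 12 libraries to 14.4 to 83.7 FPKM (other retina), 1.80 to 11.2 FPKM (vascular endothelium), 6.62 to 54.7 FPKM (corneal stroma), 13.4 to 107 FPKM (pigment cells), 8.98 to 43.6 FPKM (macrophages) and 3.56 to 132 FPKM (red blood cells). The part of these cells in any result below was not tested, and in capsule RNA fewer cells of a type and less RNA per cell cannot be told apart.

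All 9 genes were measured in every library, and their order was led by Efnb2 in 3 of the 4 groups. In WT LCs at 0 h, Efnb2 had a mean of 21.6 FPKM, above 89.5% of the 14902 genes ranked there, and its libraries lay above those of every other member. Efna1 (15.0 FPKM), Epha2 (14.1), Efna5 (11.6), Efnb1 (10.2) and Ephb4 (8.93) followed, each overlapping its neighbor in this order. Ephb3 (4.41 FPKM) lay clear of both neighbors, and Ephb2 (1.53) and Epha4 (1.45) overlapped at the bottom. In β8ITG-cKO LCs at 0 h, Efnb2 (26.6 FPKM) again lay above the rest, while Efnb1 (14.4), Epha2 (13.2), Efna5 (12.6) and Efna1 (11.6) overlapped one after the other. At 24 h, Epha2 and Efnb2 overlapped at the top, with 23.1 and 26.8 FPKM in WT and 25.4 and 22.2 FPKM in β8ITG-cKO LCs, whereas Ephb3, Ephb2 and Epha4 were the lowest members at both times in both genotypes. Summed over the members, receptor RNA was 28.1 to 33.7 FPKM at WT 0 h and 36.9 to 48.7 FPKM at WT 24 h, and 28.1 to 35.1 and 41.5 to 50.1 FPKM in β8ITG-cKO LCs. Ephrin RNA summed to 54.6 to 60.5 and 59.0 to 67.0 FPKM in WT, and to 59.6 to 70.6 and 48.6 to 60.5 FPKM in β8ITG-cKO LCs. Ephrin RNA thus exceeded receptor RNA in 11 of 12 libraries, the exception being β8ITG-cKO 24 h replicate 1, with 50.1 FPKM of receptors and 48.6 FPKM of ephrins.

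**Figure D1:**
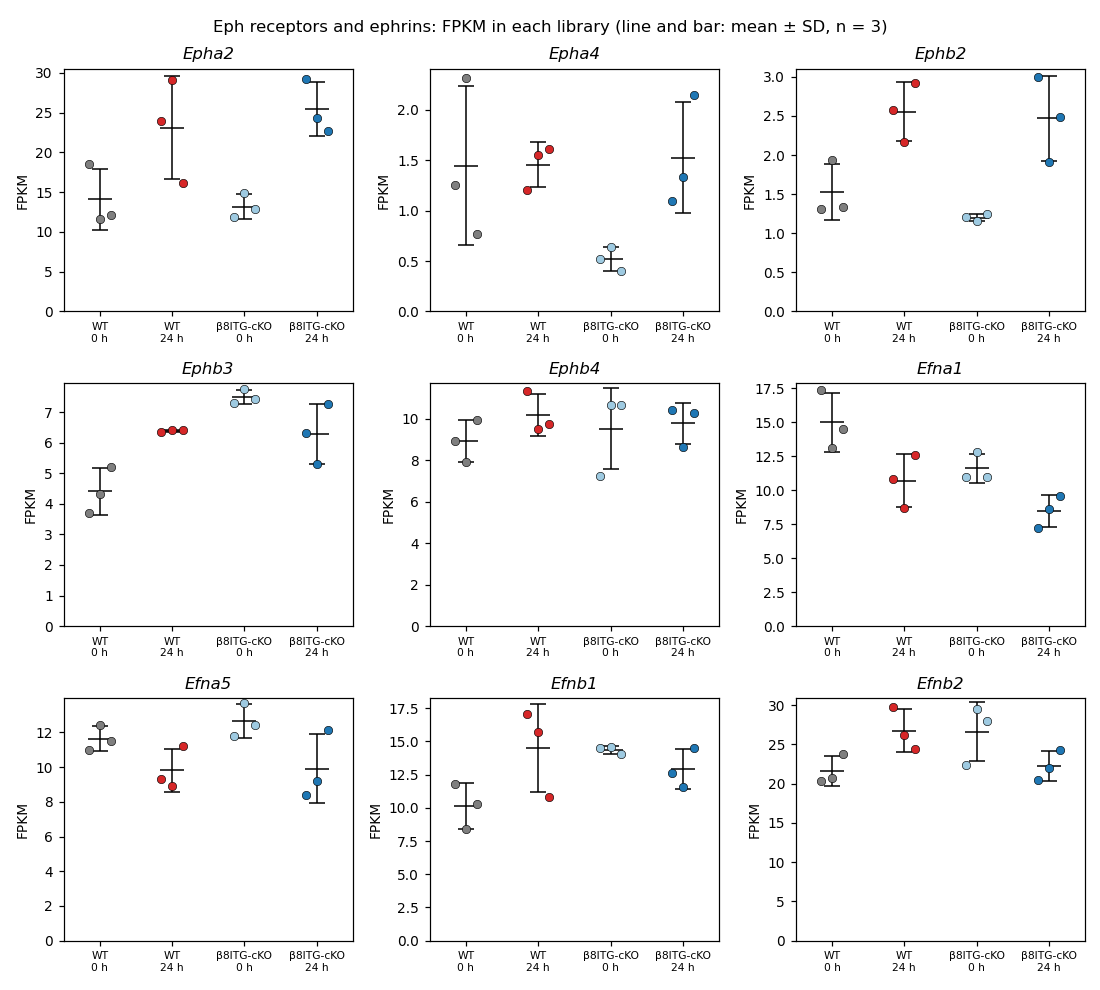
FPKM of the 9 genes (vertical axes, each from 0) in the 12 libraries, in 4 groups of 3. Points are libraries, in the order of replicates 1 to 3 from left to right, and lines and bars are means ± SD. Epha2 and Ephb2 sit higher in both 24 h groups, Epha4 is lowest at β8ITG-cKO 0 h (0.399 to 0.638 FPKM), and Ephb3 is lowest at WT 0 h (3.70 to 5.22 FPKM).

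The first question was how these genes behaved over the first 24 h PCS in each genotype. In β8ITG-cKO LCs, 3 receptors rose, Epha2, Epha4 and Ephb2, and 1 ephrin, Efna1, fell (limma-trend on log2(FPKM + 1), Benjamini-Hochberg adjusted p at most 0.05 over all 15237 genes tested). In WT LCs 0 of 9 passed the same test, with 4 at an unadjusted p under 0.05 (Epha2, Ephb2, Ephb3 and Efna1). The backgrounds were 46.1% of all genes in β8ITG-cKO and 29.7% in WT LCs, and at an unadjusted p under 0.05 they were 53.7% in β8ITG-cKO (5 of 9 members, with Efna5) and 42.6% in WT LCs. The 4 of 9 were therefore near the share of all genes, and the 0 of 9 below it. No member met the study's own added criteria (a mean of 2 FPKM or more in either group, with the means over 2-fold and over 2 FPKM apart) in any comparison of groups, against 14.3% of all genes over time in WT and 15.1% in β8ITG-cKO LCs, and 2.52% at 0 h and 3.66% at 24 h between the genotypes. The median of all genes tested was itself 0.16 higher at 24 h in WT and 0.23 higher in β8ITG-cKO LCs on the log2 scale, and changes relative to that median are given below. Rescaling the libraries to a common median of genes took the share of higher among all called genes from 70.3% to 47.9% in WT and from 76.7% to 51.4% in β8ITG-cKO LCs. Among the members, 8 then passed in β8ITG-cKO, 3 higher and 5 lower, beside 41.0% of all genes (3203 higher and 3034 lower of 15197). In WT 1 passed, Efna1, lower, beside 30.6% of all genes (2227 higher and 2418 lower of 15176).

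Epha2, the receptor tied to cataract, lies on chromosome 4 from 141301221 to 141329384. Its level in β8ITG-cKO LCs was 11.9, 14.9 and 12.8 FPKM in the libraries of 0 h, against 29.2, 24.3 and 22.7 FPKM in those of 24 h. The times did not overlap. The means, 13.2 ± 1.53 and 25.4 ± 3.39 FPKM (SD, n = 3 each), differed 1.93-fold, a log2 change of 0.89 (standard error, SE, 0.13, adjusted p = 0.00103 from limma-trend) or 0.67 above the median gene. This call held in all 13 alternatives, each library left out included, with an adjusted p of 0.000989 to 0.0149. In WT LCs Epha2 was at 18.5, 11.6 and 12.1 FPKM at 0 h, against 24.0, 29.1 and 16.2 FPKM at 24 h. WT 24 h replicate 3, the lowest of its group, overlapped WT 0 h replicate 1, the highest of its own. The log2 change was 0.67 (SE 0.25, adjusted p = 0.0822), and 0.89 without WT 24 h replicate 3 (adjusted p = 0.0229). The difference between the changes of the genotypes was 0.23 (95% interval -0.43 to 0.89, adjusted p = 0.695 from limma-trend). Epha2 made up 41.3% to 54.9% of the summed receptor RNA at WT 0 h and 43.9% to 59.7% at WT 24 h, which overlap, and 39.4% to 42.4% at β8ITG-cKO 0 h and 50.6% to 58.5% at β8ITG-cKO 24 h, which do not.

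Ephb2, an EphB receptor on chromosome 4 from 136647536 to 136836012, was low in every library. In β8ITG-cKO LCs it was at 1.20, 1.15 and 1.25 FPKM at 0 h, against 3.0, 1.91 and 2.49 FPKM at 24 h. In WT LCs it was at 1.31, 1.94 and 1.33 FPKM at 0 h, against 2.58, 2.16 and 2.92 FPKM at 24 h. The times did not overlap in either genotype. The fold of the means was 2.05 in β8ITG-cKO, a log2 change of 0.64 (SE 0.15, adjusted p = 0.00883 from limma-trend), which held in all 12 alternatives that tested it. In WT the fold was 1.67 and the log2 change 0.50 (SE 0.18, adjusted p = 0.0711), with adjusted p from 0.0241 to 0.210 over the alternatives. The changes of the genotypes differed by 0.15 (95% interval -0.33 to 0.63). As the pseudocount of 1 FPKM is large beside these levels, the log2 values understate the change of Ephb2 and Epha4.

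Epha4, the receptor of both ephrin classes, on chromosome 1 from 77367182 to 77515103, was the lowest member. The β8ITG-cKO libraries held 0.520, 0.638 and 0.399 FPKM at 0 h and 1.10, 1.33 and 2.14 FPKM at 24 h, with no overlap. The means differed 2.94-fold and the log2 change was 0.71 (SE 0.18, adjusted p = 0.0135 from limma-trend), past the threshold in all 12 alternatives. The WT libraries held 1.25, 2.31 and 0.772 FPKM at 0 h and 1.20, 1.55 and 1.61 FPKM at 24 h, and the 0 h libraries spread around those of 24 h. The WT log2 change was 0.05 (95% interval -0.52 to 0.62) and it turned to -0.09 on rescaling. The difference between the changes was 0.66 (95% interval -0.02 to 1.35, adjusted p = 0.224). Photoreceptor markers were also highest at 0 h in WT replicate 2, and 10 of 10 rose in β8ITG-cKO LCs. At WT 24 h their sum was 61.6 to 122 FPKM and Epha4 was at 1.20 to 1.61 FPKM. Their part in the Epha4 values was not tested. Without WT 0 h replicate 2 the WT change of Epha4 was 0.29 (adjusted p = 0.343) and the difference between the changes 0.42 (adjusted p = 0.391). The microRNA gene Mir6352 lies within Epha4 on the same strand.

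Ephb3 and Ephb4, the other EphB receptors, passed in neither genotype. Ephb3 lies on chromosome 16 from 21204795 to 21223309. In WT LCs it was at 3.70, 4.31 and 5.22 FPKM at 0 h, against 6.36, 6.43 and 6.40 FPKM at 24 h, while in β8ITG-cKO LCs it was at 7.30, 7.75 and 7.43 FPKM at 0 h, against 6.33, 5.31 and 7.26 FPKM at 24 h. All 3 libraries lay above those of 0 h at WT 24 h, and below them at β8ITG-cKO 24 h. The log2 changes were 0.46 in WT (SE 0.15, adjusted p = 0.0570) and -0.23 in β8ITG-cKO LCs (SE 0.12, adjusted p = 0.165), or -0.45 relative to the median gene. Rescaled, the latter was -0.49 with an adjusted p of 0.0112. Ephb4, the partner of ephrin-B2, on chromosome 5 from 137350109 to 137374522, was at 7.92 to 9.94 FPKM at WT 0 h, 9.49 to 11.3 FPKM at WT 24 h, 7.25 to 10.7 FPKM at β8ITG-cKO 0 h and 8.65 to 10.4 FPKM at β8ITG-cKO 24 h. All groups overlapped. Its log2 change was 0.17 in WT (95% interval -0.17 to 0.51) and 0.05 in β8ITG-cKO LCs (95% interval -0.32 to 0.42), and both turned negative on rescaling, to -0.06 and -0.23.

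Among the ligands, Efna1, on chromosome 3 from 89271730 to 89280951, was the member with lower RNA at 24 h in both genotypes without overlap. It was at 17.4, 13.1 and 14.5 FPKM at WT 0 h, against 10.9, 8.68 and 12.6 FPKM at WT 24 h. In β8ITG-cKO LCs it was at 11.0, 12.8 and 11.0 FPKM at 0 h, against 7.20, 8.60 and 9.59 FPKM at 24 h. The mean at 0 h was 1.40-fold that at 24 h in WT and 1.37-fold in β8ITG-cKO LCs. The log2 change was -0.45 in WT (SE 0.18, adjusted p = 0.0892) and -0.42 in β8ITG-cKO LCs (SE 0.12, adjusted p = 0.0272 from limma-trend). The latter call was lost without β8ITG-cKO 0 h replicate 2 (adjusted p = 0.0862) or 3 (0.0556) and without β8ITG-cKO 24 h replicate 1 (0.0736) or 2 (0.0620). Relative to the median gene the changes were -0.61 and -0.65, and rescaled they passed in both genotypes, with adjusted p of 0.0403 and 0.00252. The changes of the genotypes differed by 0.04 (95% interval -0.44 to 0.51).

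Efna5, the ephrin tied to lens cell packing, on chromosome 17 from 62602957 to 62881317, did not pass. It was at 11.0, 12.4 and 11.5 FPKM at WT 0 h, at 9.33, 8.89 and 11.2 FPKM at WT 24 h, at 11.8, 13.7 and 12.4 FPKM at β8ITG-cKO 0 h, against 8.38, 9.22 and 12.1 FPKM at β8ITG-cKO 24 h. In each genotype 1 library at 24 h, replicate 3, reached into the range of 0 h. The log2 change was -0.23 in WT (95% interval -0.56 to 0.10) and -0.34 in β8ITG-cKO LCs (95% interval -0.66 to -0.01, adjusted p = 0.0861), the latter -0.48 with an adjusted p of 0.0147 without β8ITG-cKO 24 h replicate 3.

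The class B ephrins Efnb1 (chromosome X, 99136061 to 99149022) and Efnb2 (chromosome 8, 8617235 to 8661260) had positive changes in WT and negative ones in β8ITG-cKO LCs, none past the threshold. Efnb1 was at 11.8, 8.37 and 10.3 FPKM at WT 0 h, 17.1, 15.7 and 10.8 FPKM at WT 24 h, 14.5, 14.6 and 14.0 FPKM at β8ITG-cKO 0 h and 12.6, 11.6 and 14.5 FPKM at β8ITG-cKO 24 h. WT 24 h replicate 3 lay within the range of WT 0 h, and without it the WT log2 change went from 0.46 (adjusted p = 0.125) to 0.65 (adjusted p = 0.0287). In β8ITG-cKO LCs the change was -0.15 (95% interval -0.39 to 0.09). Efnb2 was at 20.3, 20.7 and 23.8 FPKM at WT 0 h, 29.7, 26.1 and 24.4 FPKM at WT 24 h, 22.3, 29.5 and 28.0 FPKM at β8ITG-cKO 0 h and 20.4, 22.0 and 24.2 FPKM at β8ITG-cKO 24 h. The WT times did not overlap, while those of β8ITG-cKO did. The log2 changes were 0.30 in WT (95% interval -0.03 to 0.62), which was 0.04 on rescaling, and -0.24 in β8ITG-cKO LCs (95% interval -0.54 to 0.05). Efnb2 is also an artery gene, and the 8 vascular endothelial markers summed to 1.80 to 11.2 FPKM over the 12 libraries. Their part in the Efnb2 values was not tested.

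Counted over the members, the WT times did not overlap for 4 of 9, with 3 higher at 24 h (Ephb2, Ephb3 and Efnb2) and 1 lower (Efna1), against 46.9% of all genes (31.3% higher and 15.6% lower). In β8ITG-cKO LCs they did not overlap for 5 of 9, with 3 higher (Epha2, Epha4 and Ephb2) and 2 lower (Ephb3 and Efna1), against 56.9% of all genes (42.9% higher and 14.0% lower). The smallest p that an exact permutation test can reach for a single gene in groups of 3 is 0.1.

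**Figure D2:**
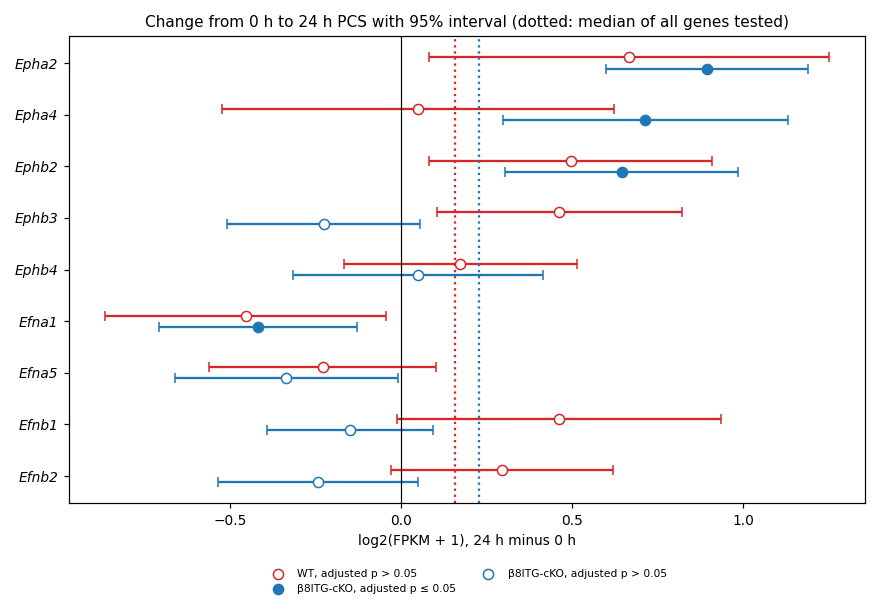
Change of each gene from 0 h to 24 h PCS on the log2(FPKM + 1) scale (horizontal axis) in WT (red) and β8ITG-cKO LCs (blue), with 95% intervals from limma-trend over 3 libraries a group. Filled points passed at an adjusted p of at most 0.05, and dotted lines are the median of all genes tested (0.16 and 0.23). Epha2, Epha4, Ephb2 and Efna1 are filled in β8ITG-cKO, and none in WT.

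The next question was whether the genotypes differed. Before the response to surgery, at 0 h, 1 of 9 members passed, Ephb3, higher in β8ITG-cKO LCs, against a background of 6.94% of the 14708 genes tested (4.18% higher and 2.75% lower). Ephb3 was at 7.49 ± 0.230 FPKM in β8ITG-cKO and 4.41 ± 0.765 FPKM in WT LCs (SD, n = 3 each), a 1.70-fold difference with no overlap. The log2 difference was 0.66 (SE 0.13, adjusted p = 0.0290 from limma-trend). It was 0.56 to 0.77 when 1 library was left out, but the adjusted p then ran from 0.0273 to 0.112 and was at most 0.05 only without WT 0 h replicate 3. Without WT 0 h replicate 2, the library rich in photoreceptor RNA, it was 0.0568. Of the 5 lens epithelial markers, 2 were also higher in β8ITG-cKO LCs at 0 h, Foxe3 (1.91-fold) and Cdh1 (1.61-fold), and their part in the Ephb3 difference was not tested.

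Other members missed the threshold at 0 h. Efnb1 was 1.41-fold higher in β8ITG-cKO LCs, with a log2 difference of 0.47 (95% interval 0.17 to 0.78, adjusted p = 0.0756) and no overlap. Epha4 was 2.79-fold lower, with a log2 difference of -0.64 (95% interval -1.19 to -0.10, adjusted p = 0.148) and no overlap, and the difference was -0.40 without WT 0 h replicate 2 (adjusted p = 0.251). Efna1 was 1.29-fold lower (log2 difference -0.34, adjusted p = 0.168) and Ephb2 1.27-fold lower (-0.19, adjusted p = 0.481), again without overlap. In all, the genotypes did not overlap at 0 h for 5 of 9 members, 2 higher and 3 lower in β8ITG-cKO LCs, against 30.8% of all genes (18.0% higher and 12.8% lower). At an unadjusted p under 0.05 there were 4 of 9 (Epha4, Ephb3, Efna1 and Efnb1), against 24.0% of all genes. For Epha2 the log2 difference was -0.07 (95% interval -0.48 to 0.35), for Ephb4 0.07 (-0.31 to 0.45), for Efna5 0.11 (-0.14 to 0.36) and for Efnb2 0.28 (-0.02 to 0.59).

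At 24 h, 0 of 9 members differed between the genotypes by limma-trend, against 6.29% of the 15366 genes tested (5.64% higher and 0.644% lower), and 0 did at an unadjusted p under 0.05, against 20.4%. The log2 difference was 0.16 for Epha2 (95% interval -0.35 to 0.67), 0.02 for Epha4 (-0.43 to 0.47), -0.04 for Ephb2 (-0.45 to 0.36), -0.03 for Ephb3 (-0.36 to 0.30) and -0.05 for Ephb4 (-0.37 to 0.27). Among the ephrins it was -0.30 for Efna1 (-0.70 to 0.10), 0.00 for Efna5 (-0.39 to 0.40), -0.14 for Efnb1 (-0.58 to 0.30) and -0.26 for Efnb2 (-0.57 to 0.06). Over the 9 genes the intervals ran from -0.70 to 0.67. Efnb2 alone did not overlap, 1.20-fold lower in β8ITG-cKO LCs, 1 of 9 against 26.5% of all genes (17.5% higher and 9.0% lower). Photoreceptor markers, in contrast, differed at 24 h in 10 of 10 genes, higher in β8ITG-cKO LCs.

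The difference between the changes over time was tested over all 12 libraries as the interaction of genotype and time. It passed for 1 of 9 members, Ephb3, against 9.39% of the 15262 genes tested (6.83% higher and 2.56% lower in β8ITG-cKO LCs). The change of Ephb3 was 0.69 lower in β8ITG-cKO than in WT LCs on the log2 scale (SE 0.19, adjusted p = 0.0395 from limma-trend), from 4.41 to 6.40 FPKM in WT and from 7.49 to 6.30 FPKM in β8ITG-cKO LCs. The groups were thus apart at 0 h and at a like level at 24 h. The adjusted p stayed at most 0.05 in 3 of 12 fits with 1 library left out, those without WT 0 h, WT 24 h or β8ITG-cKO 24 h replicate 3, and reached 0.0946 without β8ITG-cKO 24 h replicate 2. The class B ephrins had interactions of the same sign, -0.54 for Efnb2 (95% interval -0.94 to -0.14, adjusted p = 0.0906) and -0.61 for Efnb1 (95% interval -1.13 to -0.10, adjusted p = 0.133), which did not pass. Without WT 24 h replicate 3 the adjusted p of Efnb1 was 0.0241, and without β8ITG-cKO 0 h replicate 1 that of Efnb2 was 0.0485. At an unadjusted p under 0.05 the count was 3 of 9, against 24.2% of all genes.

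**Figure D3:**
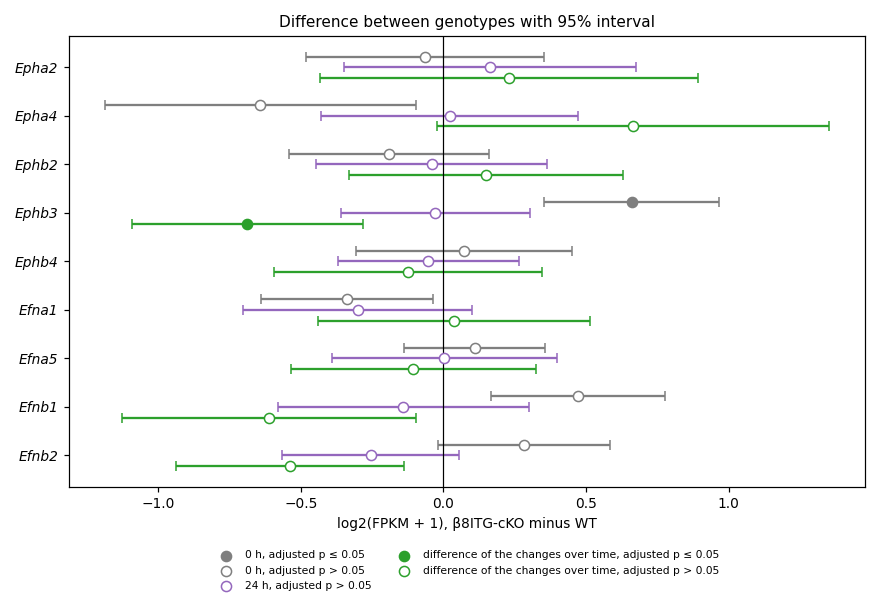
Difference between β8ITG-cKO and WT LCs on the log2(FPKM + 1) scale (horizontal axis) at 0 h (gray), at 24 h (purple) and in the change over time (green), with 95% intervals from limma-trend. Filled points passed at an adjusted p of at most 0.05. Ephb3 is filled at 0 h (0.66) and in the change over time (-0.69), and all 24 h intervals span 0.

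Of the 13 other Eph and ephrin genes, 8 reached a mean of 0.5 FPKM over the 12 libraries. Epha1, an epithelial EphA receptor, fell in both genotypes. It was at 2.84, 1.67 and 1.97 FPKM at WT 0 h and 0.180, 0.435 and 0.263 FPKM at WT 24 h, and at 1.99, 1.60 and 2.44 FPKM at β8ITG-cKO 0 h and 0.201, 0.388 and 0.151 FPKM at β8ITG-cKO 24 h. The means at 0 h were 7.38-fold and 8.14-fold those at 24 h, with log2 changes of -1.28 (SE 0.20, adjusted p = 0.00369 from limma-trend) and -1.27 (SE 0.16, adjusted p = 0.000535). Both calls held in all alternatives that tested them. The 24 h means, 0.293 and 0.247 FPKM, were under the filter of 0.5 FPKM. Epha1 passed the filter only through 0 h, where it was high, so these calls are no separate support for its level there. No member of the 9 changed by as much on this scale.

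Epha5 and Epha7, EphA receptors best known from the nervous system, were the family genes besides Ephb3 whose change over time differed between the genotypes. Epha5 was at 3.99, 4.70 and 3.73 FPKM at WT 0 h, against 2.43, 2.09 and 2.39 FPKM at WT 24 h, but at 2.40, 2.53 and 3.0 FPKM at β8ITG-cKO 0 h, against 3.85, 3.37 and 5.45 FPKM at β8ITG-cKO 24 h. It fell in WT (log2 change -0.63, adjusted p = 0.0189 from limma-trend) and rose in β8ITG-cKO LCs (0.50, adjusted p = 0.0387), where rescaling left 0.27 (adjusted p = 0.196). The WT call was lost without WT 0 h replicate 1 or 2 or WT 24 h replicate 2, and the β8ITG-cKO call was kept only without β8ITG-cKO 24 h replicate 2, with adjusted p up to 0.0658 and 0.101. The interaction was 1.14 (SE 0.22, adjusted p = 0.0106) and passed in all 18 alternatives. Epha7 was at 0.375 to 0.444 FPKM at WT 0 h, 0.158 to 0.271 FPKM at WT 24 h, 0.210 to 0.399 FPKM at β8ITG-cKO 0 h and 1.34 to 2.00 FPKM at β8ITG-cKO 24 h, where every library lay above all those of the other groups. Its rise in β8ITG-cKO LCs was 1.03 (adjusted p = 0.00107), its difference from WT at 24 h 1.10 (adjusted p = 0.00813) and its interaction 1.23 (SE 0.20, adjusted p = 0.00659). The mean of Epha7 was under the filter of 0.5 FPKM in every other group. It was tested only because of β8ITG-cKO 24 h, so these p-values are no separate support for its height there. Epha8, another EphA receptor, rose in β8ITG-cKO LCs from 0.146 to 0.737 FPKM at 0 h to 1.52 to 1.66 FPKM at 24 h (log2 change 0.98, adjusted p = 0.00392), while in WT its change was 0.06 (adjusted p = 0.902) and turned to -0.02 on rescaling. Its mean at β8ITG-cKO 0 h, 0.350 FPKM, was also under the filter, so 24 h alone brought it into the β8ITG-cKO test. The photoreceptor sum was 699 to 828 FPKM at β8ITG-cKO 24 h, and 7 further retinal markers of 7 tested also rose there. At WT 0 h replicate 2, with 872 FPKM of photoreceptor markers, Epha8 was at 1.37 FPKM against 0.292 and 0.262 FPKM in replicates 1 and 3. Epha5 was at 4.70 FPKM against 3.99 and 3.73 FPKM, and Epha7 at 0.393 FPKM against 0.444 and 0.375 FPKM. The part of retinal RNA in the values of Epha5, Epha7 and Epha8 was not tested.

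Ephb6, a receptor without kinase activity, fell in β8ITG-cKO LCs from 3.77, 4.59 and 5.50 FPKM at 0 h to 1.64, 2.21 and 2.71 FPKM at 24 h (log2 change -0.82, adjusted p = 0.00611 from limma-trend). In WT LCs it was at 2.90 to 3.11 FPKM at 0 h and 1.73 to 2.28 FPKM at 24 h (log2 change -0.42, adjusted p = 0.0732). Efna4 (0.816 to 2.47 FPKM), Efnb3 (0.113 to 1.30 FPKM) and Ephb1 (0.130 to 1.30 FPKM) passed in no comparison. Over the list, 2 of 6 genes tested passed in WT, both lower, and 5 of 8 in β8ITG-cKO LCs, 3 higher and 2 lower. The shares of all genes were 29.7% and 46.1%. Of the 3 higher, Epha7 and Epha8 had passed the filter only through 24 h. Epha1, among the lower in both genotypes, had passed it only through 0 h. Between the genotypes 0 of 5 passed at 0 h by limma-trend (3 at an unadjusted p under 0.05) and 1 of 6 at 24 h, and the interaction passed for 2 of 8. Beside these, the shares of all genes were 6.94% at 0 h (24.0% at an unadjusted p under 0.05), 6.29% at 24 h and 9.39%. The median log2 change of the list was -0.22 in WT and 0.17 in β8ITG-cKO LCs, beside 0.16 and 0.23 over all genes, and that of the 9 members was 0.30 and -0.15.

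**Figure D4:**
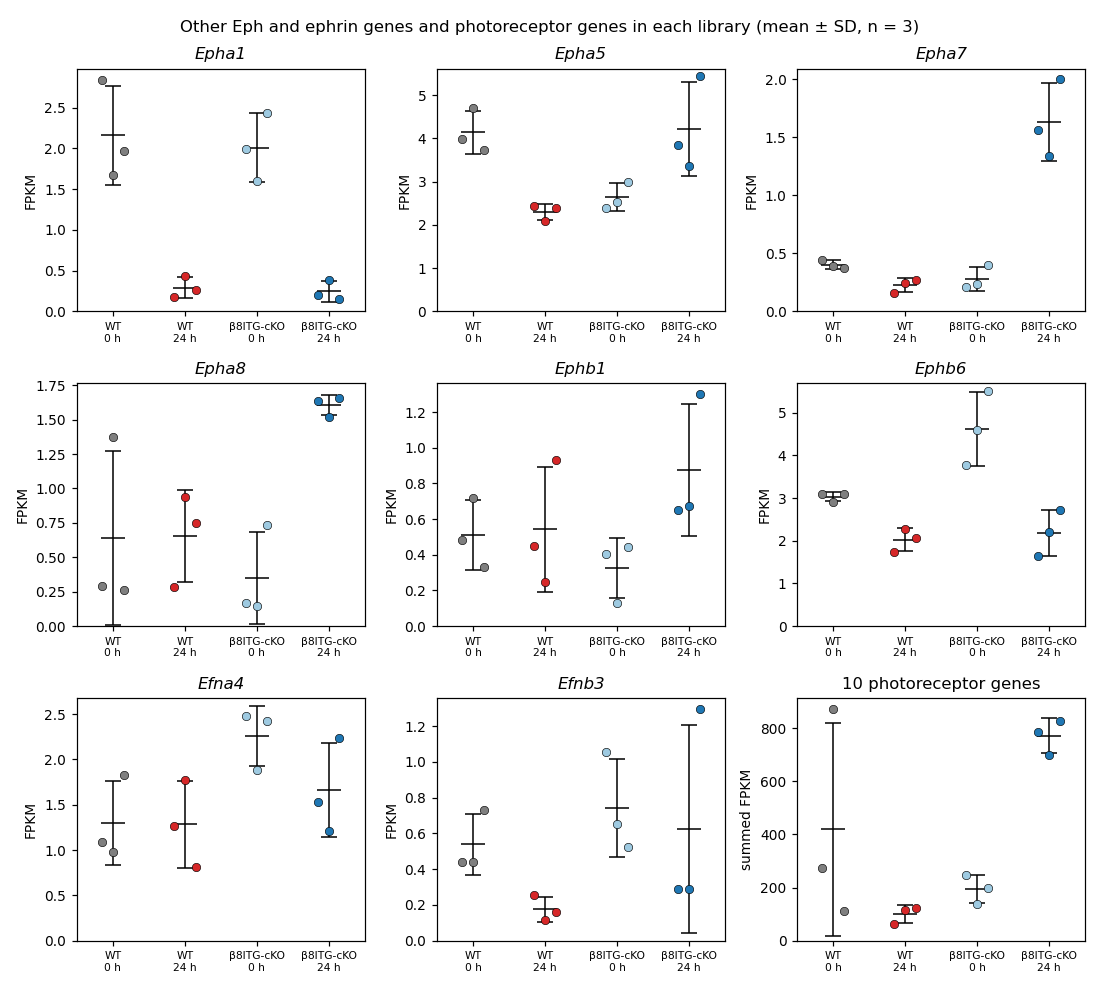
FPKM (vertical axes, each from 0) of the 8 other Eph and ephrin genes that averaged 0.5 FPKM or more, and the summed FPKM of 10 photoreceptor genes, in each library. Points are libraries in the order of replicates 1 to 3 and lines and bars are means ± SD (n = 3). Epha1 is low at 24 h in both genotypes, Epha7 and Epha8 are highest at β8ITG-cKO 24 h, and the photoreceptor sum is high there (699 to 828 FPKM) and in WT 0 h replicate 2 (872 FPKM).

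Downstream of the receptors, 40 adaptors and effectors were read out of the same tests. In WT LCs 9 of 37 tested rose by 24 h and 0 fell, with a median log2 change of 0.33, and in β8ITG-cKO LCs 18 of 38 rose and 3 fell, with a median of 0.30, beside 0.16 and 0.23 over all genes. The shares of all genes were 20.9% higher and 8.81% lower in WT and 35.4% higher and 10.7% lower in β8ITG-cKO LCs. Rescaled, the counts were 8 higher and 3 lower in WT, with a median of 0.08, and 9 higher and 7 lower in β8ITG-cKO LCs, with a median of 0.03. Of all genes, 30.6% in WT (2227 higher and 2418 lower) and 41.0% in β8ITG-cKO LCs (3203 higher and 3034 lower) passed when rescaled. On the log2(FPKM + 1) scale, which compresses low genes, the largest WT rises were in Cttn, the actin-binding protein cortactin (2.67-fold, from 37.6 to 100.2 FPKM, log2 change 1.36, adjusted p = 0.00253), Grb10, an SH2 adaptor (3.65-fold), Sdcbp, the PDZ protein syntenin that binds class B ephrins (2.02-fold), and Rock2, a kinase that acts on the actin cytoskeleton (1.93-fold). On the same scale the largest rises in β8ITG-cKO LCs were in Grb10 (6.38-fold, log2 change 1.68, adjusted p = 0.000163), Ptpn1, a tyrosine phosphatase (2.76-fold), Cttn (1.91-fold) and Kalrn, a guanine nucleotide exchange factor (3.06-fold). By the ratio of means the leading 4 were instead Grb10, Cttn, Limk1 (2.06-fold) and Sdcbp in WT, and Ptpro (7.65-fold), Grb10, Vav3 (3.21-fold) and Kalrn in β8ITG-cKO LCs, of which Limk1, Ptpro and Vav3 were named after their values were seen. In β8ITG-cKO LCs Ptpro and Vav3 had 0 h means under the filter of 0.5 FPKM (0.138 and 0.489) and passed it through 24 h. The 3 that fell there were Inppl1, the lipid phosphatase SHIP2 that binds EphA2 (1.55-fold lower, log2 change -0.60, adjusted p = 0.00350), Vav2, an exchange factor (1.46-fold lower), and Nck2, an adaptor (1.36-fold lower). The calls named here held without each library in turn, except those of Ptpro and Nck2. That of Ptpro held in the 5 such fits that tested it. The Nck2 call held in 1 of 6 such fits, without β8ITG-cKO 0 h replicate 2 (adjusted p otherwise up to 0.111).

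Between the genotypes, 2 of 37 effectors differed at 0 h, 1 of 38 at 24 h and 3 of 37 in the interaction, beside 6.94%, 6.29% and 9.39% of all genes. Rescaled, 3 were higher and 1 lower at 0 h, 1 was higher at 24 h, and the interaction passed for 4, all negative. The rescaled shares of all genes were 8.53% (684 higher and 570 lower), 6.66% (784 and 240) and 11.4% (1097 positive and 649 negative). At 0 h, 1 of 37 was higher in β8ITG-cKO LCs, Vav2 (1.57-fold, log2 difference 0.60, adjusted p = 0.0249 from limma-trend), and 1 lower, Abl2, a kinase that acts on the cytoskeleton (1.72-fold lower, log2 difference -0.62, adjusted p = 0.0363). The Vav2 call held in 3 of 6 fits with 1 library left out, and was lost without any of the β8ITG-cKO 0 h libraries (adjusted p up to 0.106). That of Abl2 held only without WT 0 h replicate 2 (adjusted p otherwise up to 0.146). At 24 h, 1 of 38 was higher, Ptpro, a phosphatase, at means of 1.06 and 0.0888 FPKM (log2 difference 0.91, adjusted p = 0.0146, and 0.0584 without β8ITG-cKO 24 h replicate 2). Ptpro passed the filter only through β8ITG-cKO 24 h, where it was high, so this call is no separate support for that level. Of the fits with 1 library left out, 4 tested Ptpro and it passed in 3. The interaction passed for 3 of 37, which were Vav2 (-0.88, adjusted p = 0.010), Inppl1 (-0.76, adjusted p = 0.0269) and Ptpn1 (0.75, adjusted p = 0.0499). That of Vav2 held in all 18 alternatives, that of Inppl1 in 12 and that of Ptpn1 in 3 (adjusted p up to 0.0678 and 0.110 with 1 library left out).

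For each member the genes with the most similar pattern were sought among the 10128 genes that averaged 2 FPKM or more, by Pearson's r of log2(FPKM + 1) over the 12 libraries, which share groups, time and scale. These were Mesdc1 (r = 0.955) and Mospd2 (0.950) for Epha2, Wapl (0.926) and Gde1 (0.910) for Epha4, Plpp3 (0.957) and Slc16a1 (0.955) for Ephb2, Rbm5 (0.929) and Plxna3 (0.892) for Ephb3, and Mfsd14a (0.866) for Ephb4. For the ephrins they were Robo1 (0.894) and Dpy19l3 (0.889) for Efna1, Cd302 (0.940) and Lrp1 (0.928) for Efna5, Pomk (0.941) and Rbm28 (0.916) for Efnb1, and Harbi1 (0.896) and Arhgef5 (0.883) for Efnb2. No member was among the genes most like another. Between members, r was highest for Efnb1 and Ephb3 (0.668) and lowest for Efna5 and Epha2 (-0.817).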

How the data were processed

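RNA of the lens capsule and attached LCs was sequenced in 12 libraries, 3 for each genotype and time. The submitters' processing notes name cutadapt 1.12, TopHat2 2.1.0, Cuffdiff 2.2.1, FastQC and the builds mm10 and GRCm38.p5, with no role or order. The authors deposited FPKM per library and gene in 4 tables of 45859 genes, 1 per pair of conditions, in which shared libraries hold equal values. A total of 16 columns of the authors' group values, and their log2 fold changes and p- and q-values, belong to no single library and were not used.

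Symbols were matched exactly. Of the symbols, 90.0% were in RefSeq GRCm38.p6 and 99.5% of those overlapped its locus. Starts in the files count from 0, so 1 was added. Each pair of groups was fitted with limma 3.58.1 (limma-trend, eBayes) in R 4.3.3 on log2(FPKM + 1). Genes whose mean in the libraries of the fit was under 0.5 FPKM were left out, with Benjamini-Hochberg adjustment over all genes tested and a threshold of 0.05. All 9 members passed the filter in every comparison. The interaction of genotype and time used 1 fit over 12 libraries. The fit was tested on data simulated for WT 24 h against WT 0 h, with 200 genes changed. It recovered 54% of 2-fold and 87.5% of 4-fold changes, so changes under 2-fold can be missed. FPKM give no counts from which to model counting error, and the pseudocount of 1 compresses low genes. The submitters give the libraries as biological triplicates.

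The genes named are the 9 members, the other Eph and ephrin genes averaging 0.5 FPKM or more, the 4 largest rises and falls among effectors that passed in each comparison, the 2 genes most like each member (1 of those for Ephb4 is not reported here), Itgb8 and markers. Members, lists and tests were chosen with earlier results of these data known. The alternatives were the pseudocount (0.1 and 0.5), the filter (none and 2 FPKM), rescaling and all 4 groups in 1 fit. A block for the replicate number and each library left out were the others. Stricter calls (an adjusted p of at most 0.01, or the study's criteria) are given apart and do not enter the numbers of alternatives. Marker lists were those of lens epithelium and fiber, photoreceptors, other retina, vascular endothelium, corneal epithelium and stroma, pigment cells, neutrophils, macrophages and red blood cells. Tables were made in Python 3.11.15 with pandas 2.3.3 and numpy 2.4.6, 95% intervals with scipy 1.17.1, and plots with matplotlib 3.10.9.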

Additional observations from a re-analysis of the deposited data

Results flagged for a closer look

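The change from 0 h to 24 h PCS differed between the genotypes, by the test of the difference itself, for 3 Eph receptor genes. These were 1 of 9 members and 2 of 8 other family genes tested, beside 9.39% of the 15262 genes tested. For Ephb3 the log2 difference was -0.69 (adjusted p = 0.0395 from limma-trend), with a positive change in WT and a negative one in β8ITG-cKO LCs, neither of which passed on its own. The Ephb3 call held in only 3 of 12 fits with 1 library left out. For Epha5 the log2 difference was 1.14 (adjusted p = 0.0106, held in all 12 such fits), with a fall in WT and a rise in β8ITG-cKO LCs. For Epha7 it was 1.23 (adjusted p = 0.00659), and its mean at β8ITG-cKO 24 h was 1.64 FPKM against 0.226 to 0.404 FPKM in the other groups. Epha7 passed the filter of 0.5 FPKM only through β8ITG-cKO 24 h, so its test is no separate support for the level there. Photoreceptor markers had the same test passed, higher, in 10 of 10 genes. Their part in the results of Epha5 and Epha7 was not tested.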

How the results depend on the processing

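Counts of members past the threshold are given first, with the share of all genes past it in parentheses. WT over time had 0 (29.7%), but 1 with a filter at a mean of 2 FPKM (36.5%) and 1 rescaled to the same median (30.6%). With all groups in 1 fit it had 5, Epha2, Ephb2, Ephb3, Efnb1 and Efna1 (41.0%). With 1 library left out it had 0 to 3 (16.6% to 33.6%), and 3 without WT 24 h replicate 3 (33.6%). β8ITG-cKO over time had 4 (46.1%), but 2 with the filter at 2 FPKM (51.2%), which leaves out Epha4 and Ephb2, and 8 rescaled (41.0%). It had 2 at an adjusted p of at most 0.01 (4474 of 15237 genes) and 0 with the study's criteria (15.1%). It had 3 with no filter (23.8%, Efna1 lost) and 3 to 5 with 1 library left out (36.7% to 41.3%). The genotypes at 0 h differed in 1, Ephb3 (6.94%), but in 0 with no filter (0.898%) or with the replicate block (1.83%). The count was also 0 at 0.01 (149 of 14708 genes) and with the study's criteria (2.52%). With 1 library left out it was 0 to 1 (0.922% to 5.18%). At 24 h the count was 0 in every alternative (2.85% with no filter to 10.1% with all groups in 1 fit). The interaction passed for 1, Ephb3 (9.39%), but for 0 with no filter (3.93%), with the replicate block (6.71%) or at 0.01 (312 of 15262 genes). It passed for 0 to 2 with 1 library left out (4.49% to 12.6%). The cause of these moves was not tested, except where fewer genes or samples entered.

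Same-numbered replicates did not deviate together over all genes (correlations of -0.218 to 0.082). This cannot exclude a pairing with small effects, and the labels give none. The block left counts of 0 and 4 over time in WT and β8ITG-cKO and 0 at 24 h, beside 28.4%, 41.8% and 4.19% of all genes.

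Signs of log2 values turned as follows. Rescaled, the change over time was -0.090 for Epha4 and -0.063 for Ephb4 in WT and -0.23 for Ephb4 in β8ITG-cKO, and the 24 h genotype difference was -0.026 for Epha4 and -0.064 for Efna5. With 1 library left out, the change over time ran from -0.16 to 0.29 for Epha4 in WT and from -0.12 to 0.13 for Ephb4 in β8ITG-cKO. The 0 h genotype difference ran from -0.18 to 0.13 for Epha2 and from -0.012 to 0.24 for Ephb4. At 24 h it ran from -0.062 to 0.34 for Epha2, -0.15 to 0.15 for Epha4, -0.15 to 0.079 for Ephb2, -0.12 to 0.073 for Ephb3, -0.097 to 0.026 for Ephb4 and -0.14 to 0.10 for Efna5. The interaction of Efna1 ran from -0.094 to 0.15. None of these had passed the threshold. Among all genes, rescaling took the share of higher calls from 89.8% to 76.6% between the genotypes at 24 h and from 72.8% to 62.8% in the interaction. Depth is unknown.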
